A study of Sus scrofa with 4 samples.

Results

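The genes of glucose breakdown and of the citrate cycle were followed through the differentiation of pig subcutaneous preadipocytes, the fibroblast-like precursors of fat cells. The 42 genes were a chosen list of enzymes and kinases of glycolysis, lactate formation, pyruvate entry, the citrate cycle and the pentose phosphate pathway, and their protein-coding rows were found by gene name. All 42 names were found, in 43 of the 16192 protein-coding rows, because LDHB was listed at 2 loci. The cells came from male Chinese Erhualian piglets less than a week old and were grown from collagenase-digested subcutaneous fat. The D0 library came from confluent cells in growth medium on day 0. At D2 the cells had spent 2 days in growth medium with a cocktail of dexamethasone, 3-isobutyl-1-methylxanthine and insulin. At D4 they had spent a further 2 days in maintenance medium with insulin, and at D8 they had been kept in growth medium without these additions since day 4. The RNA of 3 piglets was pooled evenly at every stage, giving 1 strand-specific, rRNA-depleted library per stage. Stage, culture medium and library therefore cannot be told apart, no difference between stages has a replicate check, and no p-value is given.

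Glycolysis splits glucose into pyruvate in the cytosol, and lactate dehydrogenase can turn that pyruvate into lactate. The pyruvate dehydrogenase complex instead makes acetyl-CoA from it in the mitochondrion, and the pyruvate dehydrogenase kinases switch the complex off. Pyruvate carboxylase makes oxaloacetate, which joins acetyl-CoA to form citrate. In fat cells, citrate leaves the mitochondrion to supply acetyl-CoA for fatty acid synthesis, and the cytosolic forms of malate and isocitrate dehydrogenase and the oxidative arm of the pentose phosphate pathway belong to the supply of NADPH for it.

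Levels are given as FPKM, that is fragments scaled to gene length and to the fragments counted in the library, as the authors deposited them. The totals behind FPKM lay between 54128151 and 75387428 fragments a library, and the share of fragments on protein-coding genes between 70.8% and 78.7%. A gene was called reliably expressed if its FPKM reached 1 in 3 or all 4 libraries. This held for 41 of the 43 rows and for 9191 of all protein-coding rows, called mRNAs here, and ENO2 and PDK2 did not pass. Where 4 values follow each other without a day, they are in the order D0, D2, D4, D8. Ratios between 2 libraries were computed as log2(FPKM + 0.01), and a gene is called 2-fold if the higher library had at least 2 times the value of the lower. The 95% intervals in parentheses after a log2 ratio come from the recovered read numbers and cover counting error only. The summed FPKM of 8 adipocyte markers was 122 (D0), 491 (D2), 1747 (D4) and 2076 (D8), and each of the 8 was higher at D4 than at D0. The sum of 8 markers of stromal fibroblasts and preadipocytes lay between 5936 and 6601, but its members differed in opposite directions. VIM, an intermediate filament gene, measured 2952, 885, 766 and 1898, low in the same libraries as most glycolysis genes. COL3A1, a collagen, measured 491, 1286, 2058 and 1624, and the part of these differences in the metabolic genes described here was not tested. Markers of macrophages and leukocytes (6), endothelium (5), skeletal muscle (6 of 7 listed) and erythroid cells (1 of 4 listed) summed to at most 9.04, 2.65, 0.723 and 0.271, and 2, 1, 0 and 0 of them were reliably expressed. CD14, of monocytes and macrophages, made up most of the leukocyte sum, with 3.14, 5.64, 7.54 and 2.78 FPKM, and CD163, of macrophages, measured 0.270, 1.42, 1.01 and 1.38. PECAM1 of endothelium lay between 1.14 and 2.56. PTPRC, which defines leukocytes, was at most 0.071, CDH5 of endothelium was at 0 in 3 of the 4 libraries, and MYOG of muscle was at 0 in 3. All 5 markers of dividing cells were lower at D2 than at D0, with sums of 73.9 (D0), 7.43 (D2), 31.5 (D4) and 47.3 (D8). In pooled bulk RNA, fewer cells of a type and less RNA per cell cannot be told apart.

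Most genes of glycolysis dipped in the middle of the time course. In 10 of the 14 reliably expressed glycolysis genes (HK1, HK2, PFKL, PFKP, ALDOA, TPI1, GAPDH, PGK1, PGAM1 and PKM), both the D2 and the D4 level lay below both the D0 and the D8 level. Of all mRNAs, 24.2% had this order. The order was looked for after the values had been seen, and the same 10 genes had it under both other scalings. A pseudocount cannot change the order of a gene's values, so it gives no check here. The sum over all 15 glycolysis genes was 3592 FPKM (D0), 2154 (D2), 2290 (D4) and 3491 (D8), so that the D2 library held 0.600 and the D8 library 0.972 of the D0 level. In fragments, the 15 genes took 0.937% of the D0 library, 0.579% of both D2 and D4, and 0.925% of D8. The closeness of D8 to D0 depended on scaling. The median log2 ratio of D8 to D0 over the 14 genes was -0.00012 as deposited, with 7 lower. Under median-of-ratios scaling it was 0.16, with 5 lower. The markers of dividing cells also had their lowest sum at D2, and their part in the dip was not tested.

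The steps from the triose phosphates on held the most abundant members. TPI1, which interconverts the 2 triose phosphates, was the highest of the glycolysis genes on the mean of the 4 libraries, with FPKM values of 823 (D0), 398 (D2), 420.4 (D4) and 723 (D8). It ranked 79th of the protein-coding rows at D0 and 143rd at D4. The log2 ratio of D2 to D0 was -1.05 (-1.07 to -1.03), and D4 stood at -0.97 (-0.99 to -0.95) against D0, on the other side of the 2-fold line. D2 and D4 were thus low and D8 lay between them and D0.

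GAPDH, the oxidising step of the pathway and a gene often used as a reference in RT-PCR, lies on chromosome 5 from 64129678 to 64135194 in the Sscrofa11.1 build. It measured 693 FPKM (D0), 423 (D2), 345 (D4) and 692 (D8), a 2.01-fold range. As deposited, its D0 and D8 libraries were equal within counting error, with a log2 ratio between -0.01 and 0.01. Under median-of-ratios scaling the log2 ratio of D8 to D0 was 0.15. The D4 library differed from D0 by -1.008 (-1.018 to -0.998), on the 2-fold line. The length behind its FPKM was 4718 bases, the second longest among the triose-step genes after PKM (7452), and levels of different genes depend on these lengths.

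PGAM1, the mutase that shifts the phosphate of phosphoglycerate, had FPKM values of 516, 241, 226 and 456 at D0, D2, D4 and D8. Its log2 ratio was -1.10 (-1.12 to -1.08) at D2 and -1.19 (-1.21 to -1.17) at D4 against D0, and 1.01 (0.99 to 1.03) from D4 to D8. PGK1, the first step that yields ATP, gave 573, 320.0, 296 and 586 FPKM, and PKM, pyruvate kinase, gave 153, 98.3, 85.8 and 155 FPKM. Neither PGK1 nor PKM was 2-fold in any comparison, although PGK1 came close with a log2 ratio of 0.99 from D4 to D8. For these 3 genes D2 and D4 were again the low libraries.

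Enolase was the exception among these steps. ENO1, the general form of the enzyme, measured 551 FPKM (D0), 477 (D2), 583 (D4) and 553 (D8), a range of only 1.22-fold. The ratio of its FPKM to that of GAPDH was 0.795 (D0), 1.13 (D2), 1.69 (D4) and 0.799 (D8), a ratio within each library that no scaling between libraries can change. ENO2, the neuronal form, was far less abundant and below the filter, with 3.86, 0.898, 0.687 and 2.16 FPKM from 678, 115, 119 and 273 reads. Its values had the low middle, but it added at most 0.695% to the sum of ENO1 and ENO2.

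Among the hexose steps, hexokinase, which traps glucose in the cell, had the same low middle. HK1, the widely expressed form, measured 83.6 FPKM (D0), 43.0 (D2), 57.6 (D4) and 71.0 (D8). HK2, the insulin-responsive form of muscle and fat, measured 13.9 (D0), 3.09 (D2), 6.11 (D4) and 9.71 (D8). HK2 had the largest drop of any reliably expressed member, with a log2 ratio of D2 to D0 of -2.17 (-2.30 to -2.04), or 4.49-fold. Its share of the hexokinase sum was 14.3% at D0 and 6.70% at D2, so HK1 was the main form in each library.

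Phosphofructokinase, the committing step, varied less. PFKL, the liver form, gave 29.9, 20.7, 22.6 and 30.4 FPKM, and PFKP, the platelet form, gave 14.8, 10.6, 11.8 and 14.6 FPKM at D0, D2, D4 and D8. PFKM, the muscle form, was highest at D4 and lowest at D8, with 3.68, 4.13, 4.16 and 3.06 FPKM. PFKL kept between 58.4% and 63.3% of the family sum. GPI, the isomerase between the kinases, was lowest at D2 (61.3 FPKM) and highest at D8 (87.0 FPKM).

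Among the glycolysis steps, aldolase was the one with an exchange of isoenzymes. ALDOA, the main aldolase of most cells, measured 56.2 FPKM (D0), 39.4 (D2), 41.1 (D4) and 63.7 (D8). ALDOC, the form best known from brain, lies on chromosome 12 from 44823376 to 44827273 and measured 9.37 (D0), 13.6 (D2), 115 (D4) and 45.8 (D8). The ALDOC level at D4 was 12.2-fold that at D0, with a log2 ratio of 3.61 (3.53 to 3.70), and most of this lay between D2 and D4 (3.08, 3.00 to 3.16). From D4 to D8 the log2 ratio was -1.32 (-1.37 to -1.27), which left D8 at 4.89-fold the D0 level. Its share of the aldolase FPKM was 14.3%, 25.6%, 73.6% and 41.9% at D0, D2, D4 and D8. The FPKM of ALDOA is computed over 4523 bases and that of ALDOC over 1769 bases, and in reads the ALDOC share was 6.12%, 11.9%, 52.2% and 22.0%. On both scales D4 was the only library with more ALDOC than ALDOA.

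**Figure D1:**
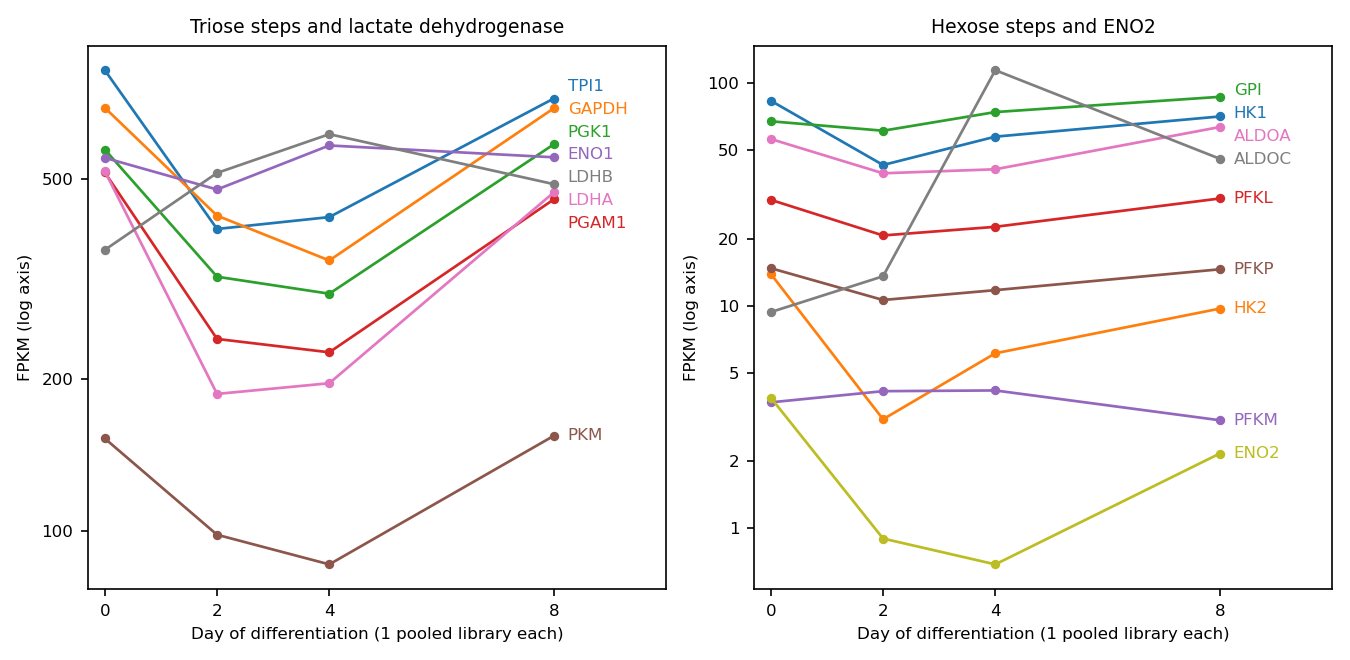
FPKM (log axis) against the day of differentiation, with 1 pooled library at each of D0, D2, D4 and D8 and a line for each gene, for the triose steps with lactate dehydrogenase (left) and for the hexose steps with ENO2 (right). TPI1, GAPDH, PGK1, PGAM1, PKM and LDHA were low at D2 and D4 and high at D0 and D8, ENO1 moved within a 1.22-fold range, and LDHB and ALDOC were highest at D4.

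The lactate dehydrogenase genes differed in opposite directions between D0 and the next 2 libraries. LDHA, whose M subunit predominates in muscle, lies on chromosome 2 from 40814163 to 40827284, and LDHB, whose H subunit predominates in heart, on chromosome 5 from 51810932 to 51831218. LDHA measured 519 FPKM (D0), 187 (D2), 197 (D4) and 471 (D8). The log2 ratios were -1.47 (-1.49 to -1.45) for D2 against D0 and 1.26 (1.24 to 1.28) for D8 against D4. LDHB measured 362 (D0), 515 (D2), 614 (D4) and 489 (D8), so that its lowest library was D0, and no comparison reached 2-fold. Together they summed to between 702 and 959 FPKM, a narrower range than that of LDHA alone.

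Of the sum of LDHA and LDHB, LDHA thus made up 58.9% (D0), 26.7% (D2), 24.2% (D4) and 49.0% (D8). The lengths behind the values differed (2800 and 1417 bases), and in reads the LDHA share was 73.9%, 41.8%, 38.7% and 65.5%. By either measure LDHA was the larger at D0 and LDHB the larger at D2 and D4, whereas the order at D8 depended on the measure. A second row named LDHB covers 1280 bases on chromosome 2 from 12988754 to 12990033, where the RefSeq annotation also lists a pseudogene. It measured 45.1, 55.9, 81.4 and 55.3 FPKM. The sequences of the 2 loci were not compared. If they are alike, reads could be shared between them, so the values of both LDHB rows are uncertain. The second row held at most 9.12% of the 3-row sum.

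**Figure D2:**
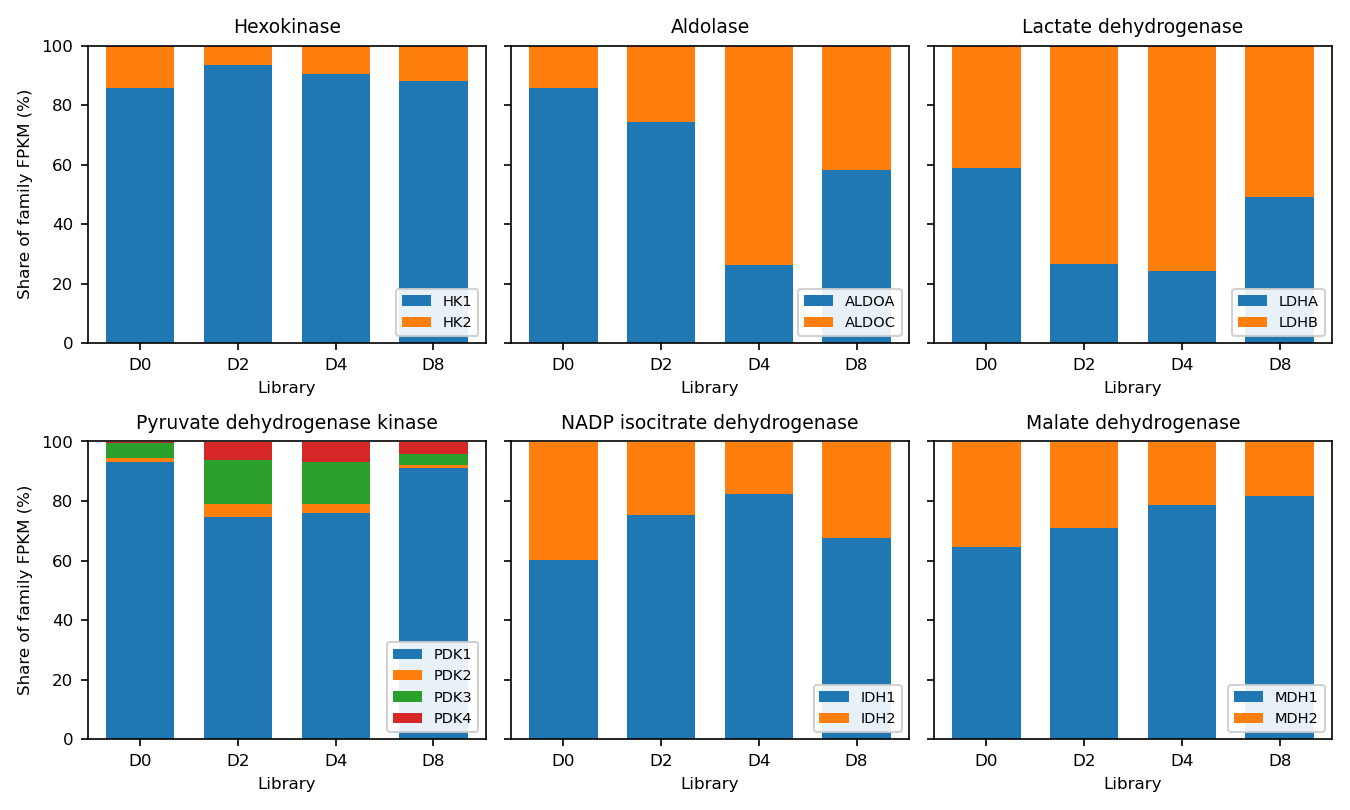
Share of each isoenzyme in the summed FPKM of its family (percent) in the libraries D0, D2, D4 and D8, as stacked bars, 1 pooled library each. HK1 predominated in every library, ALDOC reached 73.6% at D4, LDHA dropped from 58.9% at D0 to 24.2% at D4, PDK3 and PDK4 took their largest shares at D2 and D4, and by FPKM the cytosolic IDH1 and MDH1 outweighed the mitochondrial IDH2 and MDH2.

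At the entry of pyruvate into the mitochondrion, the members that encode the dehydrogenase complex itself (PDHA1, PDHB and DLAT) stayed within 1.69-fold. PDHA1, which encodes the catalytic alpha subunit, measured 74.2 FPKM (D0), 78.5 (D2), 94.6 (D4) and 83.1 (D8). PDHB, its beta partner and the member of this group with the highest mean, measured 103, 129, 147 and 163. DLAT, the acetyltransferase core, was 29.9 at D0, 43.6 at D4 and 25.9 at D8. Each of these members was higher at D4 than at D0, and only PDHB among them had its highest level at D8. Of the components outside the members, PDHX stood at 1.84-fold of its D0 level at D4 and DLD at 0.819-fold.

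The 4 kinases that inactivate the complex divided into an abundant form and 3 scarce ones. PDK1 measured 28.9 FPKM (D0), 19.7 (D2), 22.1 (D4) and 40.5 (D8), low in the middle like the glycolysis genes, and the widest of its 5 log2 ratios was 0.88 (0.83 to 0.92), from D4 to D8. PDK3 had the opposite order, with 1.58, 3.89, 4.10 and 1.64 FPKM. Its log2 ratio was 1.29 (1.21 to 1.38) at D2 against D0 and -1.31 (-1.41 to -1.23) at D8 against D4. With a pseudocount of 1 these became 0.92 and -0.95, short of 2-fold, because PDK3 is computed over 13793 bases and so has a low FPKM from many reads (1646, 2947, 4207 and 1227).

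PDK4, the kinase induced by fasting and glucocorticoids in many tissues, lies on chromosome 9 from 75246956 to 75260134 and was nearly silent at D0. It measured 0.153 FPKM (D0), 1.62 (D2), 1.97 (D4) and 1.91 (D8), from 41, 316, 519 and 366 reads. The log2 ratio to D0 was 3.32 (2.93 to 3.87) at D2, 3.60 (3.22 to 4.14) at D4 and 3.55 (3.17 to 4.10) at D8. The 3 later libraries lay together, and PDK4 passed the filter only through them. PDK2 stayed below the filter with 0.405, 1.17, 0.861 and 0.360 FPKM, highest at D2. In the kinase sum, the share of PDK1 was 93.1% (D0), 74.7% (D2), 76.1% (D4) and 91.2% (D8). In reads it was 82.6%, 54.8%, 56.4% and 83.8%.

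PC, pyruvate carboxylase, shared the widest range of the members with PDK4 (13.97-fold and 12.83-fold between the highest and lowest library). The gene lies on chromosome 2 from 5566608 to 5587797, and its FPKM was 2.17 (D0), 9.17 (D2), 30.4 (D4) and 15.4 (D8). Each of the 3 later libraries was above D0, with log2 ratios of 2.07 (1.94 to 2.21), 3.80 (3.68 to 3.93) and 2.82 (2.70 to 2.96). From D4 to D8 the log2 ratio was -0.98 (-1.04 to -0.92), just under 2-fold as deposited and -1.03 when FPKM was rescaled to a common sum over protein-coding genes. PDHA1 was 34.1-fold above PC in FPKM at D0 and 3.12-fold above it at D4. The summed FPKM of the 8 adipocyte markers was also higher in each of the 3 later libraries, and the part of cell composition in the PC values was not tested.

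Of the 14 genes of the citrate cycle and its cytosolic counterparts, 6 were highest at D4 (CS, ACO1, IDH1, OGDH, MDH1 and MDH2). As many, 6, were highest at D0, and 2 at D8. Of all mRNAs, 37.3% were highest at D4, 36.5% at D0 and 9.51% at D8. CS, citrate synthase, measured 36.0 FPKM (D0), 38.4 (D2), 69.3 (D4) and 47.4 (D8), and its log2 ratio of D4 to D0 was 0.95 (0.91 to 0.98), below 2-fold. ACO1, the cytosolic aconitase, which doubles as an iron sensor, measured 12.6, 19.7, 46.8 and 14.5 FPKM. It peaked at D4 with a log2 ratio of 1.89 (1.84 to 1.95) to D0 and was back near D0 at D8, at 0.21 (0.14 to 0.28). DDX58, on the other strand, overlaps ACO1 by 38319 bases and measured 5.90, 6.72, 9.52 and 8.72 FPKM. Whether counting used the strand is not given, and the part of DDX58 reads in the ACO1 values was not tested. IDH1, the cytosolic NADP-dependent isocitrate dehydrogenase, measured 39.0, 50.9, 91.2 and 64.7 FPKM, with a log2 ratio of 1.23 (1.20 to 1.25) at D4.

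MDH1, the cytosolic malate dehydrogenase, had the highest mean of the group and was the only one of its genes that was 2-fold at D8. Its FPKM was 114 (D0), 139.7 (D2), 271 (D4) and 251 (D8), and the log2 ratio to D0 was 1.25 (1.22 to 1.29) at D4 and 1.14 (1.10 to 1.18) at D8. Its mitochondrial counterpart MDH2 ran between 55.8 and 73.0 FPKM. The FPKM ratio of MDH1 to MDH2 was accordingly 1.83, 2.42, 3.71 and 4.49 in the 4 libraries. In recovered reads, MDH1 made up 47.0%, 53.9%, 64.2% and 68.4% of the pair. These reads rest on lengths of 1003 bases (MDH1) and 2077 bases (MDH2), the smallest that gave whole reads. If the true length of either is a multiple, its reads are too low, so the order in reads at D0 is uncertain. A similar contrast was seen for isocitrate dehydrogenase, where the mitochondrial IDH2 was low in the middle (25.7, 16.7, 19.7 and 30.9 FPKM) and the ratio of IDH1 to IDH2 was 1.52, 3.06, 4.64 and 2.09.

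The remaining mitochondrial steps had ranges between 1.14-fold and 1.91-fold. IDH3A, IDH3B and IDH3G, the subunits of the NAD-dependent isocitrate dehydrogenase, stayed within 1.14-, 1.20- and 1.23-fold, SUCLG1 within 1.16-fold and fumarase FH within 1.28-fold. OGDH, the oxoglutarate dehydrogenase, was highest at D4 with 20.04 FPKM against 12.8 at D0 and 11.7 at D8. The succinyl-CoA ligase beta subunits were low in the middle. SUCLA2, the ATP-forming one, measured 92.6, 49.9, 48.6 and 77.9 FPKM, and SUCLG2, the GTP-forming one, 54.2, 34.5, 38.2 and 53.7 FPKM.

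The 3 pentose phosphate genes divided as well. TALDO1, transaldolase of the non-oxidative arm, was the most abundant and was highest at D0, with 314 FPKM (D0), 225 (D2), 185 (D4) and 203 (D8), and it did not reach 2-fold. PGD, which yields NADPH in the oxidative arm, measured 72.8, 88.6, 153 and 61.4 FPKM. Its log2 ratio was 1.07 (1.04 to 1.10) at D4 against D0 and -1.32 (-1.36 to -1.28) at D8 against D4, so D8 ended below D0. TKT, transketolase, measured 64.1, 113, 141 and 78.9 FPKM, with a log2 ratio of 1.13 (1.10 to 1.17) at D4 against D0. PGD and TKT were thus higher at D2 and D4 than at D0 and D8, the reverse of the order in 10 of the 14 glycolysis genes and the same as that of PFKM.

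**Figure D3:**
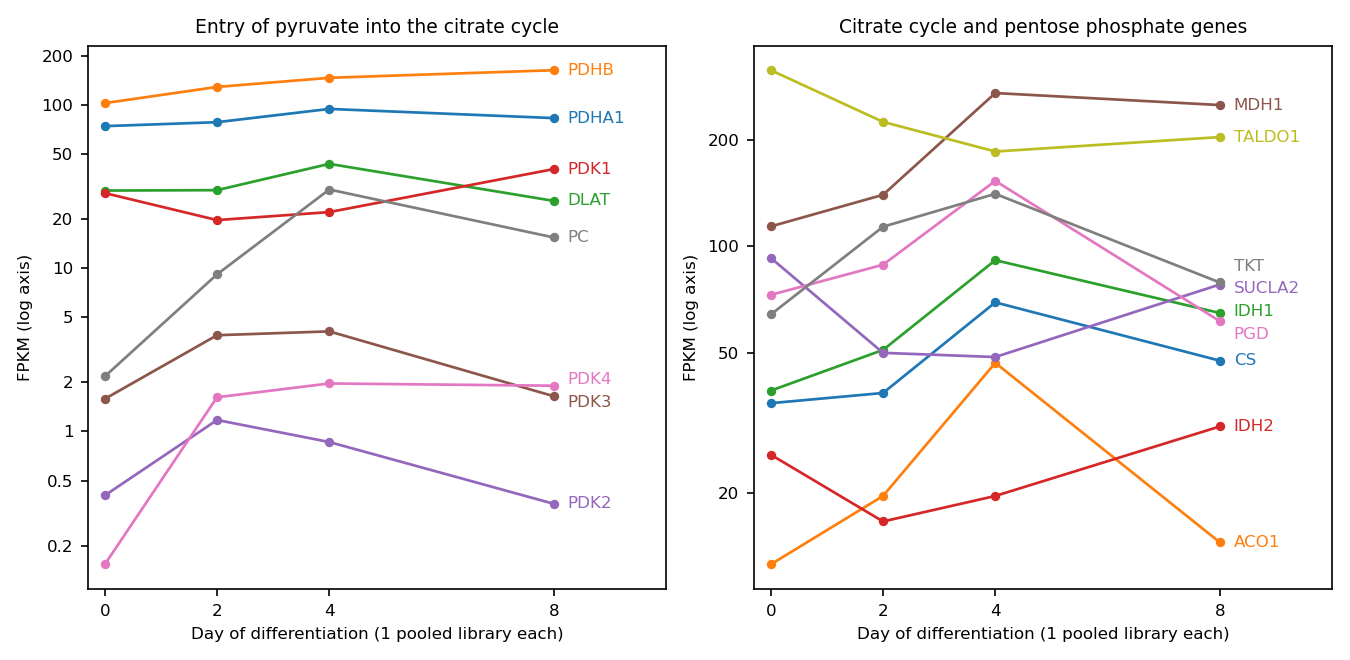
FPKM (log axis) against the day of differentiation, with 1 pooled library at each of D0, D2, D4 and D8 and a line for each gene, for the genes of pyruvate entry (left) and for 9 genes of the citrate cycle and pentose phosphate pathway (right). PC and PDK4 started at 2.17 and 0.153 FPKM at D0 and were higher in each later library, ACO1, PGD, TKT, CS and IDH1 peaked at D4, and IDH2 and SUCLA2 were low at D2 and D4.

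Taking the 41 reliably expressed rows together, 18 were highest at D4, 14 at D0, 9 at D8 and none at D2, where 37.3%, 36.5%, 9.51% and 16.7% of all mRNAs were. The lowest library was D2 for 17 of the rows, D0 for 13, D4 for 6 and D8 for 5, where 22.2%, 22.8%, 17.5% and 37.5% of all mRNAs were. The low middle was seen in 17 rows, 10 of them in glycolysis and the others LDHA, PDK1, IDH2, IDH3B, IDH3G, SUCLA2 and SUCLG2. The reverse, both D2 and D4 above both D0 and D8, was seen in 9 (PFKM, both LDHB rows, DLAT, PDK3, ACO1, OGDH, PGD and TKT), where 36.4% of all mRNAs had it. In the citrate cycle the number with a low middle depended on scaling, with 5 of 14 as deposited, 8 under median-of-ratios scaling and 4 after rescaling to protein-coding genes, beside 24.2%, 31.4% and 19.6% of all mRNAs. The reverse order was seen in 7 members under median-of-ratios scaling, neither LDHB row among them, and in 11 after rescaling, beside 31.1% and 42.6% of all mRNAs.

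Across the 41 reliably expressed rows, 7 were 2-fold between D2 and D0, where 16.8% of all mRNAs were. The 3 higher ones were PC, PDK3 and PDK4 (6.67% of all mRNAs were 2-fold higher), and the 4 lower ones were HK2, TPI1, PGAM1 and LDHA (10.1%). The glycolysis genes had a median log2 ratio of -0.58 and 12 of 14 were lower, against a median of -0.025 over all mRNAs, of which 48% were higher and 52% lower. With FPKM rescaled to a common sum over protein-coding genes, TPI1 (-0.94) and PGAM1 (-0.99) no longer reached 2-fold, which left 2 lower.

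From D2 to D4, ALDOC, PC and ACO1 were 2-fold higher, where 4.24% of all mRNAs were, and no member was 2-fold lower, where 0.838% were. Either way, 5.08% of all mRNAs were 2-fold. Of the 41, 35 were higher by any amount and 6 lower (62.5% and 37.5% of all mRNAs), but under median-of-ratios scaling 30 were higher and 11 lower, and 4590 of the 9191 mRNAs were lower. Between D4 and D0, 9 were 2-fold higher (ALDOC, PDK3, PDK4, PC, ACO1, IDH1, MDH1, PGD and TKT, with 10.4% of all mRNAs) and 4 were lower (HK2, GAPDH, PGAM1 and LDHA, with 8.81%), together 13 against 19.2% of all mRNAs. By any amount 20 were higher and 21 lower, where 53.8% and 46.2% of all mRNAs were. PDK3 was at 0.98 with a pseudocount of 1. GAPDH lay on the line and was at -0.97 after rescaling to protein-coding genes, while TPI1 (-1.02) and PGK1 (-1.01) crossed it under median-of-ratios scaling. The glycolysis median was -0.49 and that of the citrate cycle -0.029, beside 0.059 over all mRNAs.

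From D4 to D8, the 2-fold members were GAPDH, PGAM1 and LDHA, which were higher (4.43% of all mRNAs), and ALDOC, PDK3, ACO1 and PGD, which were lower (10.1%). These were 7 of 41, beside 14.5% of all mRNAs, and by any amount 20 were higher and 21 lower, beside 35.1% and 64.9%. Under median-of-ratios scaling 27 were higher and 14 lower, and 4610 of the 9191 mRNAs were lower. This comparison depended most on scaling. Median-of-ratios scaling moved the median of all mRNAs from -0.21 to within 0.01 of 0, and 591 of them were then 2-fold higher and 546 lower, in place of 407 and 928. Among the members the numbers became 6 higher and 4 lower under that scaling, with PGK1, PKM and PDK1 added, and 1 higher and 5 lower after rescaling to protein-coding genes. Relative to the median of all mRNAs, the median of the members was higher by 0.17, a difference that a scaling of whole libraries leaves as it is.

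At D8 against D0, 4 members were 2-fold higher (ALDOC, PDK4, PC and MDH1, with 3.6% of all mRNAs) and none was lower (3.68%), beside 7.28% of all mRNAs in either direction. By any amount 22 were higher and 19 lower, where 31.5% and 68.5% of all mRNAs were. Under median-of-ratios scaling 29 were higher and 12 lower, and 4864 of the 9191 mRNAs were lower. The median of the members was 0.017 and that of all mRNAs -0.18, a difference of 0.20. For all mRNAs, that scaling turned 331 higher and 338 lower into 405 and 208. In at least 1 of the 5 comparisons, 14 of the 41 were 2-fold, where 29.9% of all mRNAs were. PC, PDK4, ALDOC and MDH1 were 2-fold higher at both D4 and D8 against D0, and PC and PDK4 also at D2. The comparisons with D0 share that library and are not independent of each other.

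**Figure D4:**
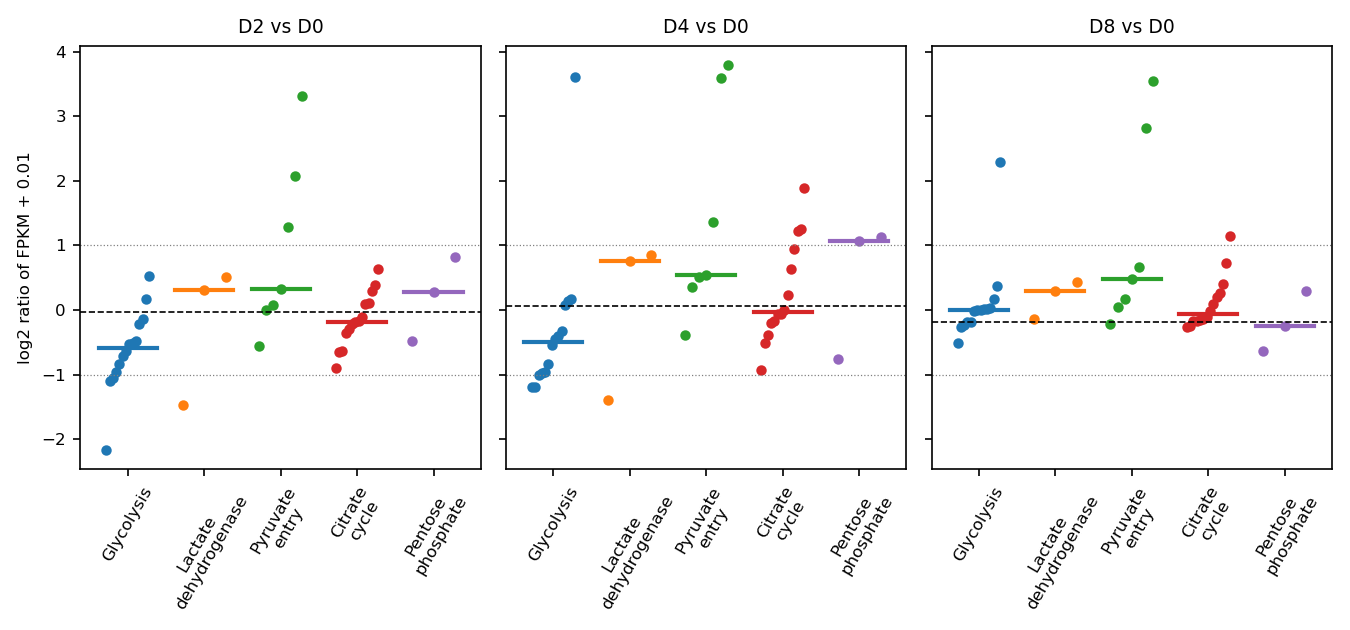
Log2 ratio of FPKM + 0.01 at D2, D4 and D8 against D0 for the 41 reliably expressed rows, with a point for each row, grouped by role and sorted within a group. Coloured bars are group medians, dotted lines mark 2-fold and the dashed line is the median of all mRNAs. The glycolysis median was -0.58 at D2 and -0.49 at D4 and near 0 at D8, with ALDOC as the high point at D4 and D8, and PC and PDK4 as the high points of pyruvate entry.

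Other enzymes and regulators of these pathways were taken from a separate list of 46 symbols, of which 44 were listed and 30 reliably expressed. Between D4 and D0, 4 of the 30 were 2-fold higher and 3 lower, beside 10.4% and 8.81% of all mRNAs, and the median log2 ratio was 0.35, beside 0.059. From D4 to D8, 4 were 2-fold higher and 3 lower, beside 4.43% and 10.1%. The 6 reliably expressed ones with the largest absolute log2 ratio of D4 to D0, in either direction, follow. The first was ENO3, the muscle enolase, which measured 15.9 FPKM (D0), 0.735 (D2), 1.01 (D4) and 2.55 (D8). SLC16A3, a transporter that exports lactate, measured 9.71, 2.08, 2.07 and 12.7 FPKM, low in the same libraries as LDHA. PCK1, phosphoenolpyruvate carboxykinase, measured 1.40, 5.19, 9.39 and 1.06 FPKM and RPIA, ribose-5-phosphate isomerase, 3.35, 8.92, 20.4 and 5.83 FPKM. ME1, the cytosolic malic enzyme, which follows MDH1 in the route to NADPH, measured 4.23, 7.30, 26.0 and 33.4 FPKM, and PDP2, a phosphatase that reactivates pyruvate dehydrogenase, 2.15, 4.42, 8.42 and 3.01 FPKM.

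circRNAs, closed loops made by back-splicing, gave a second readout of the same genes. Placed by coordinates and strand, 20 circRNAs lay within 14 of the 43 loci, and 12 of them were detected in 1 library only. Their junction reads summed to 44 at D0 (exact Poisson 95% interval 32.0 to 59.1), 72 at D2 (56.3 to 90.7), 70 at D4 (54.6 to 88.4) and 45 at D8 (32.8 to 60.2). As a share of all junction reads these were 0.0827%, 0.164%, 0.137% and 0.120%. The authors kept circRNAs with at least 2 junction reads, so those listed at 0 may lie below what this depth can show.

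Only 2 circRNAs were found in all 4 libraries. ssc_circ_0007153 within HK1, on chromosome 14 from 72426644 to 72427752, had 7, 20, 12 and 10 reads from D0 to D8, most in the library in which HK1 itself was lowest. ssc_circ_0003391 within ENO1 had 9, 9, 7 and 9 reads. ssc_circ_0003787 within IDH2 had 15 reads at D2 and 4 at D4 and was listed at 0 at D0 and D8, the libraries in which IDH2 was higher. The other 17 had at most 10 reads in any library, too few to compare stages. The counts of the HK1 and IDH2 circRNAs are small as well, and no interval was computed for single circRNAs. Whether they run against the level of their genes was not tested.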

How the data were processed

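RNA-seq values of 4 pooled libraries were used, 1 each for D0, D2, D4 and D8. The authors removed adaptor and low-quality reads, aligned the remainder to Sus scrofa 11.1 with HISAT2 2.0.5 and deposited FPKM for genes. For circRNAs they used BWA-MEM and CIRI with at least 2 junction reads and deposited SRPBM, junction reads scaled to mapped reads. The program that counted reads, and whether it used the strand, are not given in the sources used here, and 19 of the 43 rows overlap another listed gene.

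The total behind FPKM was computed from tRNA and miRNA genes whose span equals their length. The smallest whole gene length, in bases, that turned the 4 FPKM values into whole reads (within 0.01) was then found for 22944 of 22944 genes. Tested on simulated data for D2 vs D0 with 22944 genes, the calculation recovered 95.6% of the simulated read numbers and called 200 of 200 genes changed 4-fold and 0 of 9187 others. The simulated reads varied by counting error only, and the planted changes lay well beyond the 2-fold line. The calls therefore check the calculation and cannot show how often single libraries differ 2-fold for other reasons. Where reads share a factor with the length, the read number is too low and the interval too wide. Isoenzyme shares in reads carry the same uncertainty. Division by the value of 1 junction read gave whole numbers for SRPBM, within 0.01.

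All 43 rows matched RefSeq genes of Sscrofa11.1 by symbol, start and end. As in the study, 5 comparisons were made on reliably expressed genes, with a ratio of at least 2. No test was made, since 1 library a stage leaves none. The members and lists were chosen with earlier results of these data known. Values in each library are given for members that were 2-fold in any comparison, for the highest of each role group and for all isoenzymes of 6 families, and of the other list for the 6 with the largest difference of D4 to D0. Alternatives were a pseudocount of 1, no filter, median-of-ratios scaling and rescaling to a common sum of FPKM over protein-coding genes. Isoenzyme shares in reads were added after seeing the data. Sequences of these genes were not used here. Calculations used Python 3.11.15, numpy 2.4.6, pandas 2.3.3 and scipy 1.17.1.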

Additional observations from a re-analysis of the deposited data

How the results depend on the processing

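Of the values above, the 2-fold numbers and medians of the members were recomputed under each alternative. Scaling mattered most. Under median-of-ratios scaling the median log2 ratio of the members became -0.058 for D4 vs D0, 0.094 for D4 vs D2, 0.17 for D8 vs D0 and 0.16 for D8 vs D4, the last with the opposite sign to the value as deposited (-0.046), and 6 members were 2-fold higher at D8 than at D4. After rescaling to a common sum over protein-coding genes the medians were -0.078 for D2 vs D0, 0.12 for D4 vs D2, -0.094 for D8 vs D4 and 0.037 for D4 vs D0, the last again with the opposite sign to the deposited value (which lay within 0.01 of 0). There, 1 member was 2-fold higher at D8 than at D4 and 2 were 2-fold lower at D2 than at D0. The construction of these scalings, which multiply each library by a constant, accounts for the shifts. With a pseudocount of 1 or without the filter, the medians kept their sign and no number of 2-fold members moved by more than 1.5 times, but the median for D8 vs D0 went from 0.017 to 0.0034 without the filter and that for D8 vs D4 from -0.046 to -0.030 with the pseudocount. Summed SRPBM on member genes was 1.85, 1.47 and 1.34 times the D0 value in the later libraries, and 1.98, 1.66 and 1.45 times per total junction reads, inside the counting intervals of the former. No replicate could be left out, and no paired analysis was possible because each stage has 1 library.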
